A study of Mus musculus with 8 samples.

Results

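The genes examined were 10 genes for proteins that the liver secretes into blood plasma: Ahsg, Ttr, Alb, Fga, Fgb, Fgg, Hp, Serpina1a, Trf and Apoh. They were found by symbol, and all 10 were present among the 23361 genes measured. They had been picked from the comparison of cancers with controls described here, so their levels are given as a description, without a test. RNA of 5 cancers and of 3 control tissues was sequenced, each from the gastric squamous-columnar junction (SCJ), where the squamous lining of the mouse forestomach meets the glandular stomach. The cancers, labelled Trp53-/-Rb1-/-, arose in Lgr5eGFP-Ires-CreERT2 Trp53loxP/loxP Rb1loxP/loxP Ai9 mice after tamoxifen. In these mice the Lgr5 locus drives a tamoxifen-activated Cre, so both tumor suppressor genes are removed only in Lgr5+ cells and their progeny, which the Ai9 allele marks with tdTomato. Tumors were cut out along the border of tdTomato signal, without sorting cells. The controls were wild type SCJ tissue of mice paired by age, and whether they received tamoxifen was not stated for this experiment. The controls came from 3 stomachs, but the sources do not state that each cancer came from a different mouse, so every error and p given here measures the spread between libraries.

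Hepatocytes, the main cells of the liver, make most of the protein in blood plasma, and these genes are widely used to recognise them. Albumin (Alb) keeps water in the circulation and carries fatty acids and drugs. Transthyretin (Ttr) carries thyroid hormone and retinol-binding protein, transferrin (Trf) carries iron, haptoglobin (Hp) binds free hemoglobin, and fetuin-A (Ahsg) keeps calcium phosphate from precipitating. Fga, Fgb and Fgg encode the alpha, beta and gamma chains that assemble into fibrinogen, the precursor of the clot. Serpina1a is a mouse copy of alpha-1 antitrypsin, which inhibits neutrophil elastase, and apolipoprotein H (Apoh) binds anionic phospholipids. Hepatocytes raise haptoglobin and fibrinogen in the acute phase response to interleukin-6 and make less albumin and transthyretin. Not all of these genes are restricted to the liver. Pancreatic islet cells and the choroid plexus make transthyretin, fat tissue makes haptoglobin, and many tissues make some transferrin.

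Levels are FPKM, sequenced fragments per kilobase of transcript scaled by the fragments mapped, which allow genes of different length to be compared. The deposited values were rounded to whole numbers, so 0 stands for anything below 0.5 or for an estimate that failed. Pgc, the pepsinogen C gene, had 28832 FPKM in control 1 and was listed at 0 in the other controls, and 51 genes were listed at 0 in a cancer and at 100 or more in another. The number of reads behind them was not given. FPKM summed to between 403569 and 573858 in the cancers and between 887141 and 992550 in the controls. Gastric glandular markers summed to 29, 40825, 3029, 25353 and 8947 FPKM in cancers 1 to 5 and to between 73375 and 127679 in the controls. Squamous markers were listed at 0 in cancer 1 and summed to between 16 and 1588 in the other cancers. The library of cancer 1 therefore held almost none of the markers of the tissue named in its label. Of the deleted genes, Rb1 had between 4 and 6 FPKM in the cancers and between 9 and 10 in the controls, and Trp53 between 12 and 30 and between 16 and 19. These are sums over whole genes and do not separate the deleted exons.

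Plasma protein genes are a classic case of control by short DNA elements next to the start of transcription. The promoters of Ahsg, Alb and the fibrinogen genes are shown, because Ahsg was high in every cancer whereas the others stood out in a single cancer. Each runs 5′ to 3′ along the gene's own strand, from 250 bases before to 50 bases after the RefSeq start, in GRCm38.p6. Positions are Ahsg at chr16:22891765-22892064 on the plus strand, Alb at chr5:90460620-90460919 on the plus strand, Fga at chr3:83025903-83026202 on the plus strand, Fgb at chr3:83049814-83050113 on the minus strand and Fgg at chr3:83007474-83007773 on the plus strand. Capitals mark letters of any motif searched.
Ahsg: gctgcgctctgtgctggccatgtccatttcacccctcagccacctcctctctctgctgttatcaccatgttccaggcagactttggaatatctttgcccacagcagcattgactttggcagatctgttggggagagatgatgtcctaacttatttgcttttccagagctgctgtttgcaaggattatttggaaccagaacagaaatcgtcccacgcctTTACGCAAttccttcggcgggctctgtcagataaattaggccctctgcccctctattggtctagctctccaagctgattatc
Alb: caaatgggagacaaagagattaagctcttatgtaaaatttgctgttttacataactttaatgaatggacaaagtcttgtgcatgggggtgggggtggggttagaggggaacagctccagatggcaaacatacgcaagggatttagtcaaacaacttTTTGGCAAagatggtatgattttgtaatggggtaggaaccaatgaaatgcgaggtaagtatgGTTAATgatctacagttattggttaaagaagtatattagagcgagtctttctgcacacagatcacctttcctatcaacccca
Fga: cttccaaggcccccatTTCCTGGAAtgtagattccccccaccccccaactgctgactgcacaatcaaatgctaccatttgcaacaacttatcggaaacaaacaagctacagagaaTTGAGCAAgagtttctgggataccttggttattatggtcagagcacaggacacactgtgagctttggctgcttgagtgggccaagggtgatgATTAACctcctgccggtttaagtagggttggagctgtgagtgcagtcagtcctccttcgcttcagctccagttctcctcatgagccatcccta
Fgb: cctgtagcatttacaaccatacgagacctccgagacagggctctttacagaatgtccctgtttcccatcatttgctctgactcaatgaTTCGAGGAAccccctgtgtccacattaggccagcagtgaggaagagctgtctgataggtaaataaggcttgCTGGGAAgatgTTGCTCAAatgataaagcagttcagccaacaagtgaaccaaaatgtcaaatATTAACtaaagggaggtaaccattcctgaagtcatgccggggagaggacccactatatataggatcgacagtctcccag
Fgg: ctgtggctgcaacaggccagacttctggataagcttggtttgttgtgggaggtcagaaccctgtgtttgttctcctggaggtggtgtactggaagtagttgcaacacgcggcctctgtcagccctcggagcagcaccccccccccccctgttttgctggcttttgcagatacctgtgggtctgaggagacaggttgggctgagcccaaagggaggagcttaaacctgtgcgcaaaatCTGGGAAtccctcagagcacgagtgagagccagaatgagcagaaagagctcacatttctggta

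Promoter sequences were on hand for 7 of the 10 genes, namely these and those of Serpina1a and Apoh, and 5 motifs were searched on both strands. The letters GTTAAT, found in promoters of many liver genes, were found in Alb, Fga, Fgb and Serpina1a, and in 7.1% of 32851 mouse promoters of the same length. They lay within 50 bases before the start, from base -32 to -27 in Alb, -43 to -38 in Fga, -29 to -24 in Fgb and -21 to -16 in Serpina1a. TTGCNNAA, of the C/EBP type, was found in Ahsg, Alb, Fga, Fgb and Serpina1a and in 10.8% of promoters. TTCNNNGAA, of the STAT type, was found in Fga and Fgb and in 8.3% of promoters. CTGGGAA, an element of interleukin-6 responsive liver genes, was found in Fgb and Fgg and in 11.1% of promoters. TATAAA was found in 13.6% of promoters and in none of these 7, and the Apoh window held no match to any of the 5. No match of these motifs overlapped another in the windows shown. A match of letters is a description and does not show that a factor binds.

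The 10 genes fell into 2 patterns that overlapped in a single gene. Ahsg, Ttr, Hp and Trf had a higher FPKM in every cancer than in every control, a property of 14.4% of the 14357 genes tested across the table, while 19.8% of them lay lower in every cancer than in every control. Alb, Fga, Fgb, Fgg, Serpina1a, Trf and Apoh were high in a single library, which was cancer 5 for all 7 of them. High in a single library means that the highest of the 8 libraries exceeded the second by at least 2 on the log2(FPKM + 1) scale, a 4-fold step of FPKM + 1. Such a gene can still lie above the controls in other cancers. Of the 15640 genes above 0 in some library, 1.69% were high in a single library and 0.575% in cancer 5. Only 6 of the 10 passed the filter for the test across genes, and because the genes were picked for these patterns, nothing is read from their counts. Just inside the step lay Trf, with a log2 gap of 2.11, and the next below it was Hp, with 0.97. Without cancer 5, only Fgb and Hp met the step, both in cancer 1, with log2 gaps of 2.81 and 2.77. Without cancers 1 and 5, an alternative added after the levels were seen, 0 genes met it. In bulk tissue more cells of a type and more RNA per cell cannot be told apart, and this holds for every level below.

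**Figure D1:**
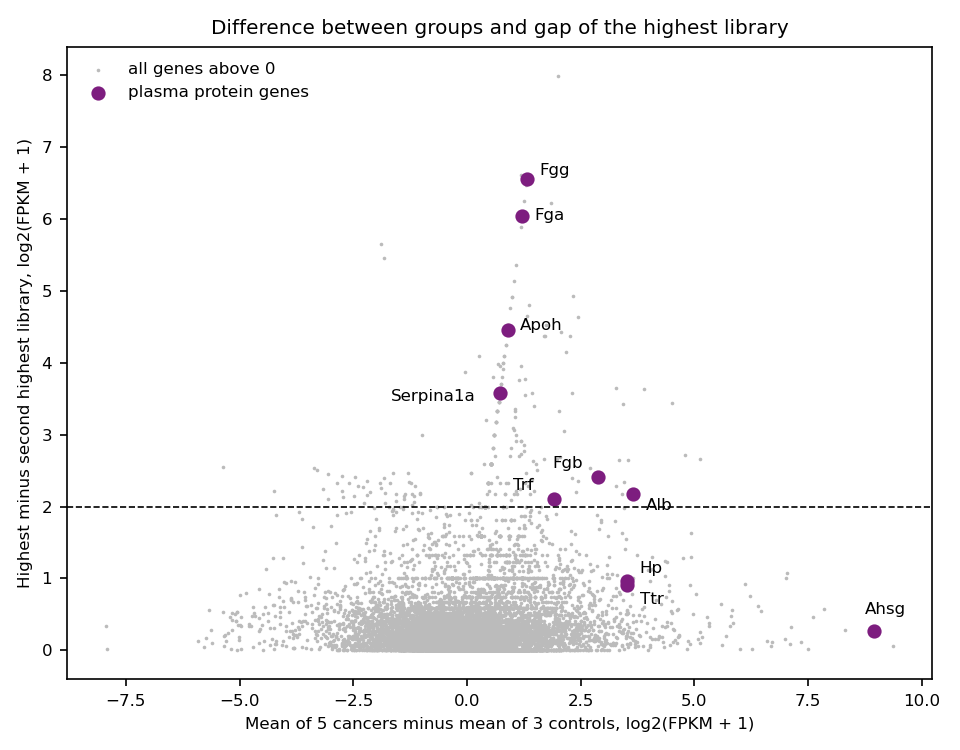
Each point is a gene, with the mean log2(FPKM + 1) of 5 cancers minus that of 3 controls on the horizontal axis and the log2 gap between its highest and second highest library on the vertical axis, and the dashed line marks a gap of 2. Ahsg lies far right with a gap of 0.27, Ttr and Hp lie below the line, and the other 7 plasma protein genes lie above it, up to a gap of 6.55 for Fgg.

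Of the 10 genes Ahsg showed the largest difference between the groups. It had 2386, 647, 812, 492 and 2886 FPKM in cancers 1 to 5 and 1, 2 and 1 FPKM in controls 1 to 3. The lowest cancer was 246-fold above the highest control, and cancers 1 and 5 stood above the other cancers. The mean level was 1445 ± 1108 FPKM in cancers (SD, n = 5) and 1.33 ± 0.577 in controls (SD, n = 3), a difference of 8.94 on the log2(FPKM + 1) scale. The control level was close to the rounding step, so the ratio of the mean levels, 1080, is imprecise. Without cancer 5 that ratio was 813. The file places Ahsg on chromosome 16 at 22892015 to 22899451 (mm10), with 7 exons on the plus strand. Its paralog Fetub, which encodes fetuin-B and lies 18930 bases away, had 87, 51, 204, 81 and 494 FPKM in the cancers and 70, 117 and 95 FPKM in the controls. Fetub thus lay within the range of the controls in cancers 1 and 4, where Ahsg did not, and was highest in cancer 5 as Ahsg was.

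Of the 10 genes Ttr had the highest level in control tissue. It had 2011, 890, 1073, 668 and 455 FPKM in cancers 1 to 5 and 66, 94 and 74 FPKM in the controls. The groups did not overlap, and the lowest cancer was 4.84-fold above the highest control. The mean was 1019 ± 601 FPKM in cancers (SD, n = 5) and 78.0 ± 14.4 FPKM in controls (SD, n = 3), a log2 difference of 3.52. Ttr was highest in cancer 1 and lowest of the cancers in cancer 5, where its level was 0.464 of the median of the other 4. All of the other 9 genes were highest in cancer 5, as were 10.3% of the genes above 0 in some library. The gene lies on chromosome 18 at 20665250 to 20674326 and has 4 exons.

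Ahsg and Ttr changed place between libraries. The ratio of Ahsg to Ttr was 1.19 in cancer 1, between 0.727 and 0.757 in cancers 2 to 4, and 6.34 in cancer 5. In the controls it was between 0.0135 and 0.0213. Ttr was thus the more abundant in cancers 2, 3 and 4 and in all controls, and Ahsg in cancers 1 and 5. The 2 genes were measured in the same libraries and were not tested against each other, so the ratios in each library describe how they differ. Averaged over the cancers, both stood apart from the remaining 8 genes, whose mean levels were 71.8 FPKM or less. All 10 genes together made up between 0.215% and 1.13% of the FPKM sum of a cancer and at most 0.0125% of that of a control. Without Ahsg and Ttr, the remaining genes summed to 172, 59, 87, 45 and 929 FPKM in cancers 1 to 5 and to between 10 and 15 FPKM in the controls.

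**Figure D2:**
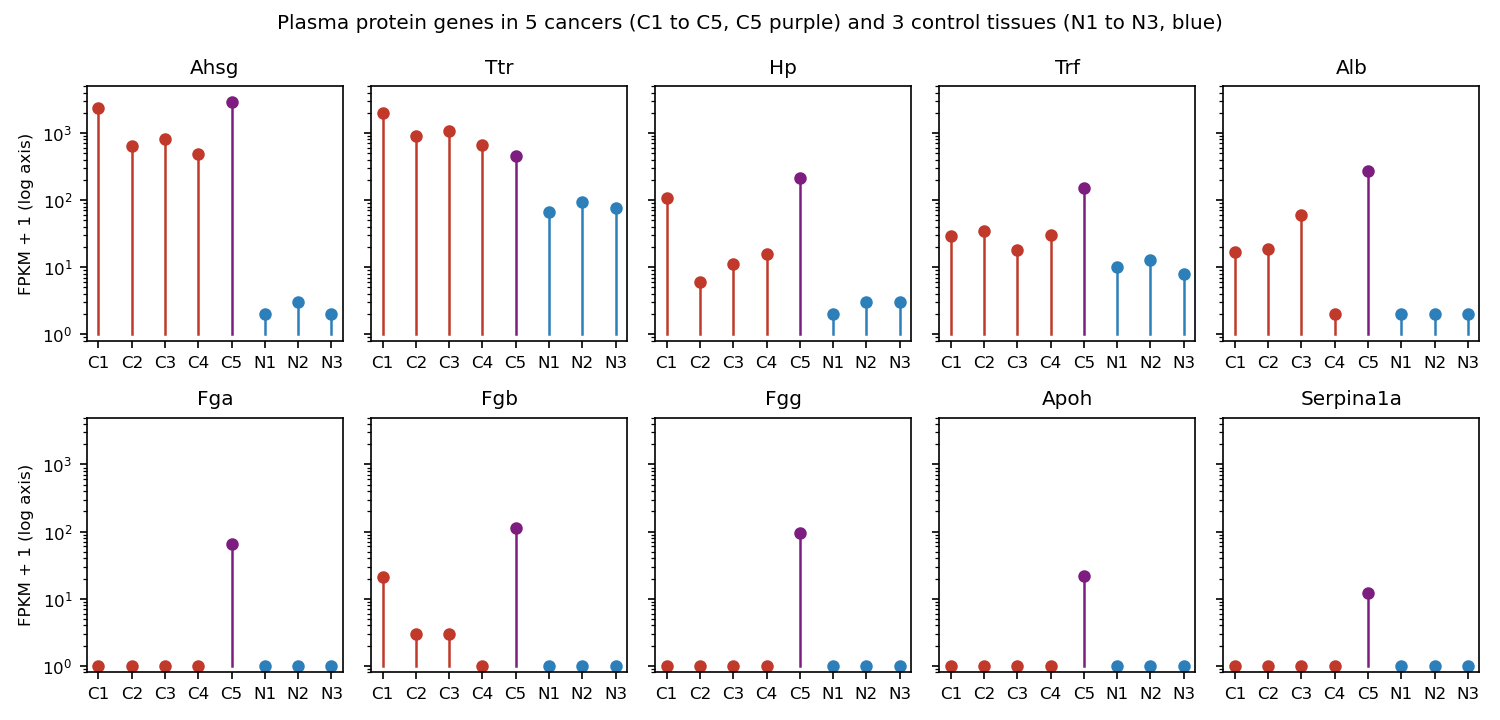
FPKM + 1 on a log axis for each plasma protein gene in cancers 1 to 5 (C1 to C5, with C5 in purple) and controls 1 to 3 (N1 to N3, blue), where a point at the bottom is a gene listed at 0. Ahsg and Ttr stand above every control in all 5 cancers, while Fga, Fgg, Apoh and Serpina1a rise from 0 only in cancer 5, to 65, 93, 21 and 11 FPKM.

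Cell types outside the liver that make Ttr were looked up by their markers. Gcg, the glucagon gene of alpha cells, had 8250, 17443, 8054, 89 and 36 FPKM in cancers 1 to 5 and between 3 and 48 FPKM in the controls. The 4 alpha cell markers summed to between 81 and 17466 FPKM in the cancers and between 15 and 62 in the controls. Cancers 4 and 5, with the lowest sums, also had the lowest Ttr of the cancers, whereas the highest sum, in cancer 2, did not go with the highest Ttr. The 4 choroid plexus markers summed to 86, 43, 103, 23 and 13 FPKM in cancers 1 to 5 and to between 1 and 4 in the controls. Nearly all of this in cancers 1 to 3 was Folr1, a folate receptor, which had 6 FPKM in cancer 5, and Otx2 was listed at 0 in every library. The part of these cells in the Ttr level was not tested.

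Trf was raised in all cancers and further in cancer 5. It had 28, 34, 17, 29 and 150 FPKM in cancers 1 to 5 and 9, 12 and 7 FPKM in the controls. The lowest cancer was 1.42-fold above the highest control, the smallest such margin of the 4 genes without overlap. The mean was 51.6 ± 55.4 FPKM in cancers (SD, n = 5) and 9.33 ± 2.52 FPKM in controls (SD, n = 3), a log2 difference of 1.92. Cancer 5 had 5.26 times the median of the other cancers, and the ratio of the mean levels of cancers and controls went from 5.53 to 2.89 without it. The other cancers lay within 17 to 34 FPKM. Trf spans 21411 bases on chromosome 9, at 103208876 to 103230286, with 17 exons on the minus strand.

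Hp was high in a pair of cancers and low but above the controls in the rest. It had 108, 5, 10, 15 and 212 FPKM in cancers 1 to 5 and 1, 2 and 2 FPKM in the controls. The lowest cancer, with 5 FPKM, was 2.5-fold above the highest control, and the highest was 42.4-fold above the lowest. The mean was 70.0 ± 90.1 FPKM in cancers (SD, n = 5) and 1.67 ± 0.577 FPKM in controls (SD, n = 3), a log2 difference of 3.52. The ratio of the mean levels was 42.0 and fell to 20.7 without cancer 5. Adipocyte markers, examined because fat makes haptoglobin, summed to 228 FPKM in cancer 1, to 8 in cancer 2, to 1 in cancer 3 and to 0 in every other library. In cancer 1 they comprised 49 FPKM of Adipoq (adiponectin), 164 of Cfd (adipsin), 13 of Plin1 (perilipin) and 2 of Lep (leptin). All 4 were listed at 0 in cancer 5, where Hp was highest. Their part in the Hp level of cancer 1 was not tested. Hp lies on chromosome 8 at 109575128 to 109579172, with 5 exons on the minus strand.

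Alb was the most variable of the genes detected in every library. It had 16, 18, 58, 1 and 266 FPKM in cancers 1 to 5 and 1 FPKM in each control. Cancer 4 was at the level of the controls, so the groups touched, and cancer 5 had 15.6 times the median of the other cancers. The mean was 71.8 ± 111 FPKM in cancers (SD, n = 5), and the SD of the log2 levels of the cancers, 2.60, exceeded those of Hp, 2.22, and of Ahsg, 1.15. The ratio of the mean levels was 71.8 and dropped to 23.2 without cancer 5. After each library was scaled to the same sum (TPM), cancer 4 also lay above the controls, and the count of genes without overlap went from 4 to 5. Alb was listed at 1 FPKM in cancer 4 and in each control. This separation therefore came from the FPKM sums, 559720 in cancer 4 and at least 887141 in the controls, applied to a rounded value. In cancer 5 Ahsg exceeded Alb 10.8-fold. Alb lies on chromosome 5 at 90460889 to 90476603 and has 15 exons.

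The 3 fibrinogen genes lie next to each other on chromosome 3, in a stretch of 41895 bases from 83007896 to 83049790. Fgg and Fga are 11103 bases apart on the plus strand, and Fgb follows after 8687 bases on the minus strand. Fga had 65 FPKM in cancer 5 and was listed at 0 in the other 7 libraries. Fgg had 93 FPKM in cancer 5 and was likewise listed at 0 elsewhere. Fgb had 20, 2, 2, 0 and 111 FPKM in cancers 1 to 5 and was listed at 0 in every control. Only in cancer 5 were all 3 chains listed above 0, at levels within a 1.71-fold range, with Fgb above Fgg and Fgg above Fga. A single library carries no error for that order. In cancer 1 the beta chain gene was at 20 FPKM with the genes of its partner chains listed at 0, a ratio unlike that of cancer 5, where Fgb was 1.71 times Fga. The letters GTTAAT shown above are in Fga and Fgb and not in the window of Fgg. RefSeq places the starts of Fgg and Fgb upstream of the loci in the deposited file, so both windows lie wholly before those loci.

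Apoh and Serpina1a were the least abundant of the 10 genes. Apoh had 21 FPKM in cancer 5 and was listed at 0 in the other libraries. Serpina1a had 11 FPKM in cancer 5 and was listed at 0 in the others. Apoh lies on chromosome 11 at 108395297 to 108414396, and Serpina1a on chromosome 12 at 103853295 to 103863619, as 1 of 5 Serpina1 copies in 228742 bases. Of the 50-base windows of the Serpina1a transcript, 72.2% also occur in another copy, so reads may have been divided among them and the level of a single copy is uncertain. Serpina1b had 12, 0, 1, 0 and 25 FPKM in cancers 1 to 5, Serpina1d had 2 and 8 FPKM in cancers 1 and 5, and Serpina1c had 6 FPKM in cancer 5 alone. Serpina1e was listed at 0 throughout, and so were all the copies in the controls. The copies that were detected were thus highest in cancer 5.

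Counted by library, cancers 1 to 4 had 6, 6, 6 and 5 of the 10 genes above 0, cancer 5 had all 10, and each control had 5. The 5 present in every control were Ahsg, Ttr, Alb, Hp and Trf. In cancer 5 the order of levels was Ahsg, Ttr, Alb, Hp, Trf, Fgb, Fgg, Fga, Apoh and Serpina1a. A pattern of a single library was not particular to cancer 5, since 92 genes of the table were high in cancer 1 alone, 90 in cancer 5 and 43 in control 1, and at most 17 in each of the others. The 7 plasma protein genes were among the 90 of cancer 5 and none among the 92 of cancer 1.

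**Figure D3:**
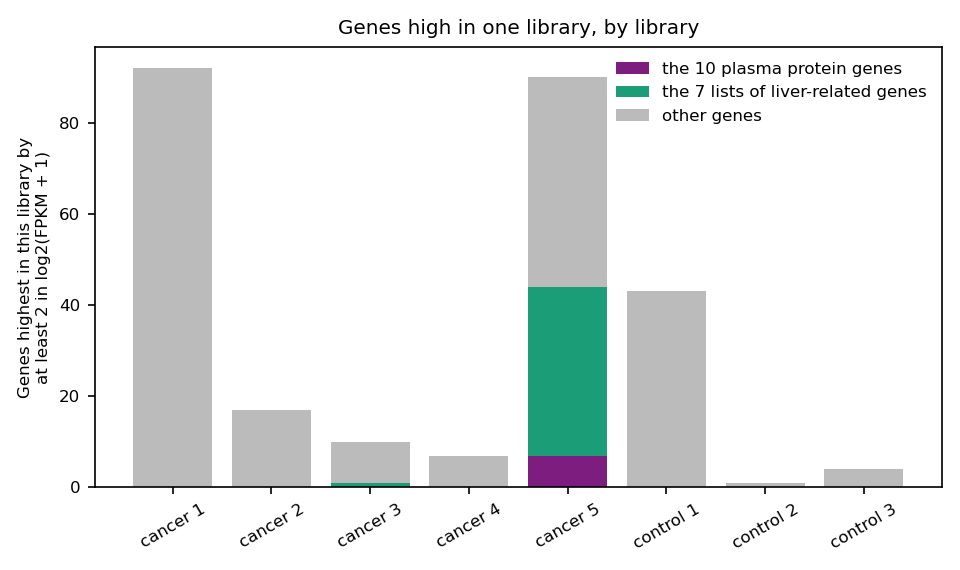
Bars give, for each library, the number of genes that are highest there by at least 2 on the log2(FPKM + 1) scale, divided into the 10 plasma protein genes (purple), genes of 7 lists of liver-related genes (green) and all other genes (grey). Cancer 1 has 92 such genes and none of these, cancer 5 has 90 with 7 plasma protein genes and 37 listed genes, and cancer 3 has 1 listed gene.

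Other genes of hepatocytes, of acute phase signalling and of receptors and partners of the plasma proteins were taken from 7 lists with 163 genes in all, none of them among the 10. Of the 145 above 0 somewhere, 95 (65.5%) were highest in cancer 5, against 10.3% of all genes above 0, 37 (25.5%) were high in cancer 5 alone, against 0.575%, and 40 (27.6%) were above 0 only there, against 1.41%. The lists were chosen with earlier results of these data known, so these shares are a description and no test. The lists differed: highest in cancer 5 were 33 of 37 other plasma proteins and 28 of 34 hepatocyte enzymes and transporters. Only 4 of 20 transcription factors and 4 of 17 receptors and partners were. Of 39 other plasma proteins of hepatocytes, 37 were above 0 and 19 were high in cancer 5 alone. Kng1 (kininogen) had 40 FPKM there, Saa1 88 and Saa2 58 (serum amyloid A), and all were listed at 0 elsewhere. Of 13 coagulation factors, 3 were high in cancer 5 alone: F2 (prothrombin) with 19 FPKM, Plg (plasminogen) with 14 and F12 with 5. Of 39 hepatocyte enzymes and transporters, 12 were, among them Cps1, the entry enzyme of the urea cycle, with 16 FPKM, Hpd with 15 and Mat1a with 61. The secreted iron regulator Hamp had 157, 39, 99, 107 and 989 FPKM in cancers 1 to 5 and between 10 and 22 in the controls. It was above every control in every cancer and met the step for a single library in cancer 5, whereas Hp was also high in cancer 1.

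**Figure D4:**
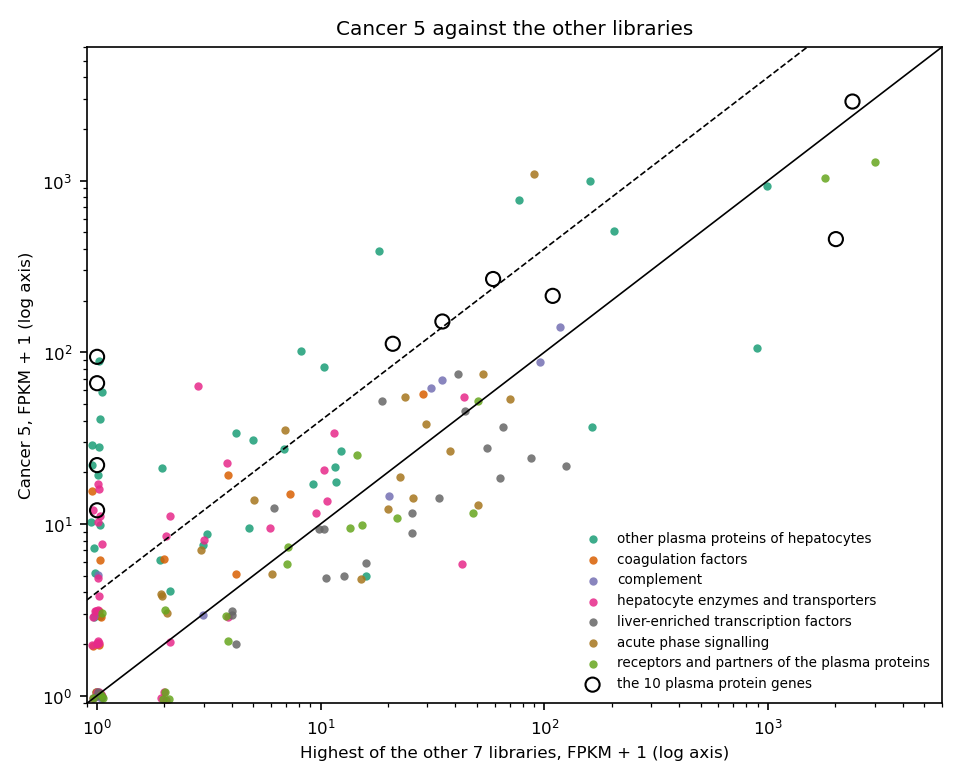
FPKM + 1 in cancer 5 against the highest of the other 7 libraries, both on log axes, for the genes of 7 lists (coloured, moved at random by up to 6% so that equal values can be seen) and the 10 plasma protein genes (circles). The solid line marks equal levels and the dashed line a 4-fold excess in cancer 5; of the plasma protein genes only Ttr lies below the solid line, with 455 against 2011 FPKM.

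Tested across all genes with limma, 7 of 20 other plasma protein genes rose in the cancers and 1 fell, against 16.2% and 18.3% of all genes, and their median log2 fold change was 1.8, against -0.04 over all genes tested. The number of rises was 1 without control 2, 2 without control 1 or 3, and 4 without cancer 1 or 3. Only 20 of the 39 genes of this list passed the filter. Genes listed at 0 in every control, such as Itih4, passed it only through the cancers and could only rise. The rises and medians of this and the other lists are thus partly set by the filter, and nothing is read from them. Gc, the vitamin D-binding protein, was like Ahsg high in every cancer, with 432, 237, 962, 298 and 887 FPKM in the cancers against 4, 4 and 3 in control tissue (limma, a rise of 6.70 ± 0.49 in log2 units with its standard error, adjusted p = 0.00046). Rbp4, the retinol carrier that binds transthyretin in plasma, had 917, 374, 278, 12 and 108 FPKM in the cancers against 3, 6 and 5 in control tissue (limma, 4.93 ± 1.24 in log2 units, adjusted p = 0.020). Without control 1 the adjusted p of Rbp4 from limma was 0.0764, and without cancer 3 or the other controls between 0.051 and 0.0649. Both Rbp4 and Ttr were highest in cancer 1. Lrg1, an acute phase glycoprotein, had 24, 74, 72, 51 and 809 FPKM in the cancers against 2 to 4 in control tissue (limma, a rise of 4.52 in log2 units, adjusted p = 0.014, and 0.0519 without control 2). Like Trf, Lrg1 was above the controls in every cancer and stood out in cancer 5.

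Among the coagulation factors 1 of 5 tested rose, in complement 2 of 6, and among hepatocyte enzymes and transporters 2 of 10. These are 20%, 33.3% and 20%, against 16.2% of all genes, with medians of 0.90, 0.82 and 0.27 over the genes tested, and with so few genes nothing is read from the shares. Pros1 (protein S) had between 7 and 55 FPKM in the cancers and between 2 and 5 in the controls (limma adjusted p = 0.035, and between 0.065 and 0.12 without cancer 3, cancer 4 or any control). C4b (complement) had between 8 and 59 FPKM in the cancers and between 3 and 4 in the controls (limma adjusted p = 0.022, and between 0.0609 and 0.0771 without any control). Both were highest in cancer 5, as 9 of the plasma protein genes were. Tat, which degrades tyrosine, had 11, 8, 6, 6 and 34 FPKM in the cancers and was listed at 0 in the controls (limma adjusted p = 0.0033). Uox, which degrades urate, had between 1 and 9 FPKM in the cancers and was listed at 0 in the controls (limma adjusted p = 0.014, and 0.0524 without control 1).

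Markers of other cell types of the liver were examined in the same libraries. In cancer 5 the 5 Kupffer cell markers summed to 2 FPKM, with 3 of them, Clec4f, Vsig4 and Timd4, at 0, and the 5 markers of sinusoidal endothelium summed to 3 FPKM. These sums were 9 and 8 FPKM in cancer 1, at most 2 in cancers 2 to 4, and at most 3 in the controls. Of the 5 stellate cell markers, 3 were at 0 in cancer 5, and Ecm1 made up 61 of a sum of 62 FPKM, within the range of the other cancers. What levels of these markers would accompany the plasma protein genes in liver tissue was not measured here. Of markers of yolk sac and fetal liver, Afp (alpha-fetoprotein) was listed at 0 in cancer 5 and at most at 2 anywhere, and Apoa4 had 51 FPKM there and between 43 and 81 in the controls. Neutrophil markers summed to 441 FPKM in cancer 5, between the 13 and 962 of the other cancers, and to between 170 and 394 in the controls. In cancer 5 these were mostly S100a8 with 223 FPKM, S100a9 with 154 and Ltf with 62, while Ngp had 2 and Camp was listed at 0. Macrophage markers summed to 80 FPKM in cancer 5, between the 35 and 277 of the other cancers, and to between 20 and 44 in the controls. Pancreatic acinar markers summed to 52 FPKM in cancer 5, of which Cela1 made up 51, and at most 288 anywhere. The part of any of these cells in the levels of the plasma protein genes was not tested.

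Of 23 listed transcription factors of the liver, 0 were high in cancer 5 alone, as were 0.575% of all genes, so nothing is read from that count. Of these factors 20 were tested, 1 rose and 7 fell, against 16.2% and 18.3% of all genes, with a median log2 fold change of -0.41. Several, such as Gata4, are also made by stomach epithelium, whose glandular markers summed to between 29 and 40825 FPKM in the cancers and between 73375 and 127679 in the controls, and their part in these falls was not tested. Gata4 had between 20 and 47 FPKM in the cancers and between 109 and 120 in the controls (limma, -2.03 ± 0.29 in log2 units, adjusted p = 0.0029). Foxa3 had between 15 and 35 FPKM in the cancers and between 52 and 87 in the controls (limma, -1.67 ± 0.29 in log2 units, adjusted p = 0.0059). TPM scaling moved the median over all genes from -0.04 to 0.81, with 8 of the factors higher and 3 lower, and left Gata4 at -1.08 and Foxa3 at -0.73, both still past the threshold. Prox1 had 5, 1, 3, 2 and 11 FPKM in the cancers and was listed at 0 in the controls (limma adjusted p = 0.019, and between 0.062 and 0.0667 without any control).

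Genes of acute phase signalling were examined because haptoglobin and fibrinogen answer to it. Of 17 tested, 3 rose (17.6%, against 16.2% of all genes) and 2 fell, with a median of 0.93. With TPM 12 were called, all higher, as were 7176 of the 7704 genes called across the table. Saa3, a serum amyloid A made largely outside the liver, had 22, 12, 21, 71 and 54 FPKM in the cancers against 2, 0 and 0 in control tissue (limma, 4.40 ± 0.64 in log2 units, adjusted p = 0.0032). Il1r1 (interleukin-1 receptor) had between 12 and 37 FPKM in the cancers and between 4 and 5 in the controls (limma adjusted p = 0.0050). Il1b (interleukin-1 beta) had 6, 3, 5, 4 and 36 FPKM in the cancers and at most 1 in the controls (limma adjusted p = 0.040, and between 0.0681 and 0.134 without cancer 1, cancer 3 or any control). Lcn2 (lipocalin-2) had 3, 6, 87, 51 and 1092 FPKM in the cancers and between 1 and 3 in the controls (limma adjusted p = 0.11, not past the threshold, and 0.0362 with TPM). Il1b and Lcn2 thus met the step for a single library in cancer 5, like 7 of the plasma protein genes. Il1b was nevertheless above every control in every cancer, and Lcn2 in cancers 2 to 5. Interleukin-6 itself (Il6) had at most 3 FPKM, in cancer 5. The part of acute phase signalling in the levels of Hp and the fibrinogen genes was not tested.

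Receptors and partners of the plasma proteins were mixed, with 4 of 13 tested higher and 4 lower, against 16.2% and 18.3% of all genes, and a median of -0.31. When a control was left out, at most 1 was called lower, and the 6 called with TPM were all higher. The transferrin receptor Tfrc had 5, 10, 11, 22 and 11 FPKM in the cancers and 49, 26 and 22 in control tissue, against the direction of Trf (limma, -1.43 ± 0.43 in log2 units, adjusted p = 0.038). With TPM the Tfrc difference was -0.52 (limma adjusted p = 0.268), and the call was also lost without any control and without cancer 1, 2, 3 or 5, with adjusted p from limma between 0.0523 and 0.138. The iron exporter Slc40a1 had between 5 and 24 FPKM in the cancers and between 2 and 3 in the controls (limma adjusted p = 0.021, and between 0.0522 and 0.0763 without cancer 3 or any control). Lrp8, a receptor of the LDL receptor family to which apolipoprotein H binds, had between 2 and 6 FPKM in the cancers and at most 1 in the controls (limma adjusted p = 0.014, and 0.0516 without control 2). Cd163, the macrophage receptor for complexes of haptoglobin and hemoglobin, had at most 1 FPKM.

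The genes nearest to each pattern were found among 8715 genes with at least 10 FPKM in some library, by the root mean square difference of centred log2(FPKM + 1) over the 8 libraries. For Fgg they were Saa1 at 0.026, Fga at 0.17 and Saa2 at 0.22. Serpina1a was matched at 0 by Apoc4, Fbp1 and Kng2, each at 11 FPKM in cancer 5 and 0 elsewhere. The pattern of Alb was less shared, and its nearest genes were Col9a2, then Zim1 at 1.27 and Fgb at 1.30. For Ahsg the nearest were Chgb and Vgf at 0.98, followed by Resp18, all genes of secretory granules of endocrine and nerve cells. Chgb had 7002, 4256, 5738, 1725 and 2272 FPKM in the cancers and between 7 and 21 in the controls, so its highest level was in cancer 1 and that of Ahsg in cancer 5. For Ttr they were Skap1 and Bcl6b at 0.29 and Maged1 at 0.39, all highest in cancer 1. For Hp they included Cdh13 at 0.86 and Hamp at 0.87, and for Trf Ccdc109b and Cebpd at 0.36 and Ccl3 at 0.37. With 8 libraries such nearness describes these samples only.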

How the data were processed

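RNA of 5 SCJ cancers and 3 control SCJ tissues was measured by polyA+ RNA sequencing, and samples were grouped by their genotype and tissue labels. Per the submitters' processing notes and the paper's methods, the authors trimmed reads with cutadapt 1.8, aligned them with TopHat2 2.0.13 to mm10, quantified UCSC genes with cuffquant and computed FPKM with Cuffnorm 2.2.1. The deposited FPKM had been rounded, since 100% of them were whole, and are treated as a score and not as counts. The labels name a directional NEBNext kit and the paper's text another system. Depth per library was not given in the sources used here, so no counting interval is stated.

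The 10 genes and all gene and marker lists were chosen with earlier results of these data known. Genes with at least 1 FPKM in at least 3 of the 8 samples (14357) were tested on log2(FPKM + 1), a scale that understates changes of low genes, with limma 3.58.1 in R 4.3.3, using lmFit and a trended eBayes, and Benjamini-Hochberg adjustment over all of them, at a threshold of 0.05. Of the 10 genes 6 passed that filter, and Fga, Fgg, Serpina1a and Apoh did not. No p is given for any of the 10. All 163 listed genes and 58 of 60 markers (12 cell types) were matched by symbol. Named were, per list, up to 3 called genes with the largest change and up to 3 with the largest gap of at least 2 between the highest and the second library, the 3 nearest profiles of Ahsg, Ttr, Alb, Fgg, Hp, Serpina1a and Trf, and the deleted genes. Fetub, Hamp, the Serpina1 copies, Il6 and Cd163 were named after their values were seen. A few genes that this rule names are not reported here. Nothing showed a library deposited more than once, as every pair differed in at least 10149 genes. The fit was tested on simulated data. Alternatives were a pseudocount of 0.1, no filter, a mean of at least 5 FPKM, array weights, a block for the replicate number, an untrended eBayes, TPM, quantile normalization and leaving out each library. Promoters were RefSeq's for GRCm38.p6.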

Additional observations from a re-analysis of the deposited data

Results flagged for a closer look

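In 18 of 55 results examined, the highest of the 5 cancers stood apart from the others by more than 0.71 of the range of log2(FPKM + 1), the limit of Dixon's test for 5 samples. Chance passes that limit in about 1 of 20 groups. The cancer that stood apart was cancer 5 in all 18. Most of these genes were picked for being high in a single library or for nearness to such a gene, so their number was fixed by the choice and no excess over chance is read from it. Of the plasma protein genes Fga, Fgg, Serpina1a and Apoh had a gap of 1, since each was listed at 0 in cancers 1 to 4. They were picked for that pattern, so these values are a description and no test. Among listed genes the gap was also 1 for the plasma proteins Kng1, Saa1 and Saa2, the coagulation factors F12 and Plg, the complement gene C8b (4 FPKM in cancer 5) and the enzymes Cps1 and Hpd. It was 0.734 for the enzyme Mat1a and 0.748 for Il1b. Of the genes nearest to a plasma protein gene, Apoc4, Fbp1 and Kng2 had a gap of 1, and so had Ccl3, which was at 1 FPKM in cancers 1 to 4 and at 11 in cancer 5. Ahsg, Ttr, Alb, Fgb, Hp and Trf did not pass this limit.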

How the results depend on the processing

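Without cancer 5 the log2 differences of Fga (1.21), Fgg (1.31), Serpina1a (0.72) and Apoh (0.89) went to 0 and that of Fgb from 2.87 to 1.89, and to 1.06 without cancers 1 and 5. With TPM the differences were about 1 larger, at 9.95 for Ahsg (8.94), 4.50 for Ttr (3.52), 4.58 for Alb (3.66), 4.48 for Hp (3.52) and 2.88 for Trf (1.92). Genes without overlap numbered 4, and 5 with TPM and 6 without cancer 4. Genes high in a single library numbered 7, and between 2 (without cancer 5) and 8 (without cancer 1) when 1 library was left out, and 0 without cancers 1 and 5. Of all genes, 4948 were called, 7704 with TPM (7176 higher and 528 lower), 8148 with array weights, and between 2490 (without control 1) and 5252 (without cancer 2) when 1 library was left out. Without controls 2 and 3 the counts were 2643 and 2815. Listed genes called numbered 34, 57 with array weights, and between 15 (without control 2) and 39 (without cancer 5), with 19 and 17 without controls 1 and 3. With a mean of at least 5 FPKM 3519 genes were called, 1244 of them higher. With a replicate block the calls were 1534 of all genes and 15 of the listed genes. Replicate numbers gave no pairing: same-numbered cancers and controls had correlations of deviations of -0.02, -0.19 and -0.10, so this block has no basis in the design. For the named listed genes that were called, 222 recalculations kept the call and 64 lost it, and for those not called 48 stayed so and 2 gained a call (Lcn2 with TPM, adjusted p = 0.0362, and with array weights, 0.0121), and none reversed. Counts of calls per list stayed within 1.5 times in 279 recalculations and not in 146. The causes of these changes were not tested. Rounding to whole FPKM and the unknown depth limit every level under about 1 FPKM.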
